A study of Arabidopsis thaliana with 12 samples.

Results

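The genes described here are NTRC (AT2G41680), FTRB (AT2G04700) and AT4G08280 of Arabidopsis thaliana, each measured by 1 feature of an expression array. A feature was taken as a member when its annotation named exactly 1 gene and that gene was on this short list, which gave 3 members among 692 features with 1 gene and 3439 features in all. The features carry the numbers 1759, 3436 and 3251 in that order, and 0 of the 870 features annotated with several genes named any of these genes. All 3 genes are protein coding in the RefSeq table of assembly TAIR10.1. Their coordinates are not given, because the sequence build behind the array is not given in the sources used here. The members were picked with their light-adapted and recovery values known, so every difference between those groups below is a description of the members and carries no test.

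Both groups were wild-type plants of the ecotype Columbia 0, sampled as total RNA on 12 arrays. The 6 light-adapted arrays came from plants kept in light, and the 6 recovery arrays from plants that had been put in darkness for 1 h and then returned to light. The return to light lasted 2 h according to the titles and descriptions and 1 h according to the source names. The labels give no plant age and no tissue, and there was no array from the end of the dark period, so the part of the dark period and that of the renewed light cannot be told apart. They also do not say whether the arrays of a group stand for separate plants, so spreads and p-values cover differences between these arrays, which may be technical.

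Chloroplast thioredoxins are small proteins that switch enzymes on and off by reducing their disulfide bonds. In the light, ferredoxin reduced by photosystem I passes electrons to ferredoxin-thioredoxin reductase, whose catalytic subunit is encoded by FTRB, and from there to thioredoxins that activate enzymes of the Calvin-Benson cycle. NTRC, a fusion of an NADPH-dependent thioredoxin reductase with a thioredoxin domain, draws on NADPH instead and also serves 2-Cys peroxiredoxins, so it can work when light is weak or absent. AT4G08280 encodes a protein assigned to the thioredoxin superfamily, which also holds the glutaredoxins, and its substrate and location are not given in the annotation used. The arrays measured RNA and not the redox state of any protein.

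The values are intensities as deposited, from 0 to a ceiling of 100, and were read as linear. Array medians were 0.0710 to 0.103 in the light-adapted group and 0.0358 to 0.0400 in the recovery group, and exact zeros made up 17.9 to 22.2% of the features on light-adapted arrays and 23.3 to 28.6% on recovery arrays. Summed intensity ran from 2286 to 3314 per array, and arrays that share a number across the groups had totals within 2.51% of each other. Within each group, arrays 1 and 2, 3 and 4, and 5 and 6 also had like totals, 2557 and 2559, 3233 and 3265, and 2286 and 2316 on the light-adapted side. Whether such neighbours are repeats of the same sample is not stated, and n below counts arrays. Since the group medians were so far apart, each member is given on the deposited scale, after quantile normalization of log2 intensity, and after centring each array on its median. Differences are always recovery minus light adapted. The photosynthetic genes LHB1B2, an antenna protein of photosystem II, and PSAN, a subunit of photosystem I, were above 0 on all 12 arrays, while the other 12 genes of the marker list, those of root, guard cell, trichome, phloem, seed and flower among them, had no feature of their own. Fewer cells of a type and less RNA per cell cannot be told apart in such samples.

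NTRC was higher in recovering plants, by about 1.91-fold as deposited and 3.85-fold after quantile normalization. Its deposited intensity on light-adapted arrays 1 to 6 was 0.0318, 0.0773, 0.0528, 0.0617, 0.0527 and 0.0521. On recovery arrays 1 to 6 it was 0.0917, 0.0693, 0.112, 0.102, 0.114 and 0.129. The groups overlapped through the arrays numbered 2: light-adapted array 2 was the highest of its group, recovery array 2 was the lowest of its own, and theirs was the one pair in which recovery was lower. The ratio of recovery to light-adapted intensity was 0.897 in that pair and 1.66 to 2.88 in the other 5. Group means were 0.0547 ± 0.0148 and 0.103 ± 0.0207 (SD, n = 6 each). On the log2 scale the deposited difference was 0.93 ± 0.25 (SE from the limma fit over all features).

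After quantile normalization the NTRC groups no longer overlapped; recovery arrays lay entirely above light-adapted arrays for 13.3% of the 2364 features tested. NTRC had log2 values of -5.74 to -4.36 in light-adapted and -3.26 to -2.37 in recovery arrays. The difference was 1.95 ± 0.26 (SE), and the 6 pairs gave 2.82, 1.10, 1.86, 1.63, 2.03 and 2.23 in order of array number. Pair 2 again gave the smallest difference and pair 1, which held the lowest light-adapted value, gave the largest. Median centring gave 1.87 ± 0.25 (SE) with pair differences of 0.87 to 2.61. Among the 3439 features of its array, NTRC stood in the lower part on light-adapted arrays, at percentiles of 27.7 to 42.8, and at percentiles of 64.0 to 75.0 on recovery arrays.

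FTRB was also higher in recovering plants, by 1.40-fold as deposited, 1.86-fold after quantile normalization and 2.67-fold after median centring, a smaller factor than that of NTRC on each scale. Its deposited intensity on light-adapted arrays 1 to 6 was 0.326, 0.292, 0.605, 0.436, 0.157 and 0.329. On recovery arrays 1 to 6 it was 0.430, 0.350, 0.788, 0.752, 0.296 and 0.370. Recovery was the higher array in 6 of 6 same-numbered pairs, as for 11.8% of all features tested, although the groups overlapped widely and only 2 recovery arrays lay above every light-adapted one. Arrays 3 and 4, which had the highest summed intensities, held the highest FTRB values in both groups, and array 5 the lowest in both. The ratio within a pair ran from 1.12 to 1.88, with a mean of 1.42 ± 0.306 (SD, 6 pairs).

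The FTRB difference was 0.48 on the deposited log2 scale, with a SE of 0.36 when the arrays were treated as unpaired and 0.19 with the array number as a block. Its size did not change between those fits. After quantile normalization it was 0.89 ± 0.28 (SE), or 0.21 with the block, with pair differences of 0.52 to 1.53 and groups that still overlapped. Light-adapted array 3, at -1.14, lay above the lowest 2 recovery arrays, at -1.35 and -1.23. Median centring gave 1.42 ± 0.28 (SE) and groups that did not overlap, with recovery above as for 20.2% of all features tested on that scale, and pair differences of 1.01 to 1.71. FTRB stood at percentiles of 68.2 to 85.3 on light-adapted arrays and of 84.3 to 89.9 on recovery arrays.

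**Figure D1:**
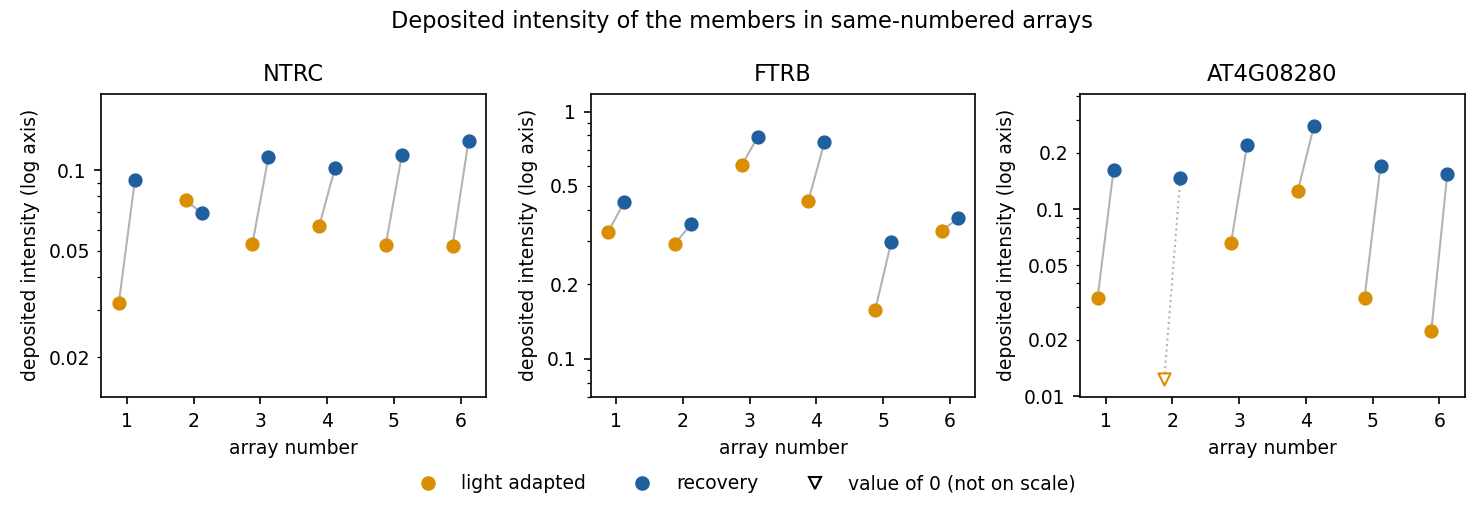
Deposited intensity (log axis) of NTRC, FTRB and AT4G08280 on arrays 1 to 6, with light-adapted arrays in orange, recovery arrays in blue and a line joining arrays of the same number. The open triangle marks the value of 0 of AT4G08280 on light-adapted array 2, and NTRC in pair 2 is the one pair with the recovery array lower.

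AT4G08280 had the largest difference of the group, and its deposited values did not overlap between light-adapted and recovery arrays, with recovery above as for 6.85% of all features tested. Its deposited intensity on light-adapted arrays 1 to 6 was 0.0333, 0, 0.0659, 0.125, 0.0334 and 0.0222. On recovery arrays 1 to 6 it was 0.162, 0.146, 0.219, 0.277, 0.171 and 0.154. The lowest recovery value, 0.146 on array 2, lay above the highest light-adapted value, 0.125 on array 4. Array 4 was the highest of both groups. The light-adapted values were spread from 0 to 0.125, whereas the recovery values ran from 0.146 to 0.277.

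Light-adapted array 2 has no log2 value for AT4G08280 and was left out of its log2 differences, so the light-adapted mean rests on 5 arrays. The difference was 2.00 ± 0.42 (SE) on the deposited log2 scale, a 3.99-fold higher level, and 2.90 ± 0.37 after quantile normalization, or 7.48-fold. The 5 pairs that could be compared gave deposited ratios of 4.87, 3.33, 2.22, 5.11 and 6.92 for arrays 1, 3, 4, 5 and 6. Each was above that of NTRC and FTRB in the same pair. On the quantile-normalized scale the 5 pair differences were 1.82 to 3.74, smallest in pair 4. Median centring gave 2.93 ± 0.34 (SE). The SD of the normalized log2 values was 0.90 in light-adapted (n = 5) and 0.15 in recovery arrays (n = 6).

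The position of AT4G08280 within the array was 28.1, 8.96, 42.1, 54.2, 35.0 and 29.4 in percentiles on light-adapted arrays 1 to 6. On recovery arrays it lay at percentiles of 76.2 to 80.7. The 8.96 belongs to the value of 0 on light-adapted array 2, which was given the mean rank of all zeros of that array. That figure is not a measured position. Whether a value of 0 in these data stands for a missing transcript was not tested. The feature of SBPASE, the Calvin-Benson enzyme sedoheptulose-1,7-bisphosphatase, was also listed at 0, on 6 of 6 light-adapted arrays.

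**Figure D2:**
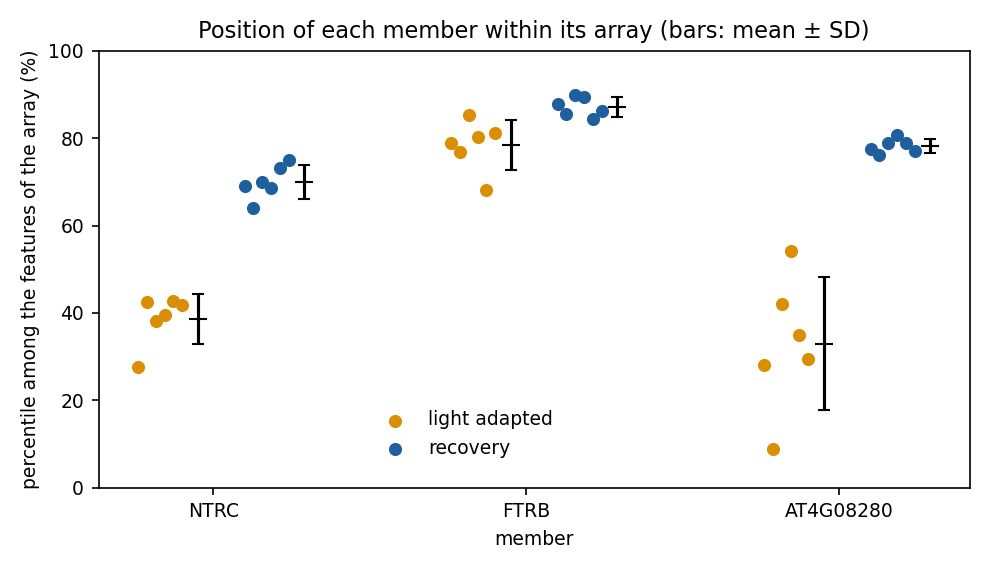
Percentile of each member among all 3439 features of the same array (vertical axis, %), with light-adapted arrays in orange, recovery arrays in blue and the mean ± SD in black (6 arrays each). NTRC and AT4G08280 lie higher on every recovery array than on any light-adapted array, as do 14.7% of the 2364 features tested, while FTRB overlaps, from 68.2 to 85.3 against 84.3 to 89.9. The AT4G08280 point at 8.96 is the value of 0 on light-adapted array 2. It was given the mean rank of all zeros of that array and enters the mean ± SD.

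Of the 2364 features tested in limma, 438 were higher in recovery on the quantile-normalized scale at an adjusted p under 0.05, which is 18.5%, and 435 were lower. On the deposited scale 9.56% were higher and 36.8% lower. With the means of arrays 1 and 2, 3 and 4, and 5 and 6, 3 against 3, limma called 405 features in either direction against 873. The differences of the members were then 1.95 ± 0.34 for NTRC, 0.89 ± 0.36 for FTRB and 3.02 ± 0.49 for AT4G08280 (SE). Recovery was the higher array as deposited in at least 5 of 6 pairs, as for each member, in 16.3% of features. The members were chosen from this contrast, so these shares and those above stand beside their values and nothing is read from the comparison.

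The scale moved the whole array as well as the members. The median log2 difference over the 2364 features was -0.82 on the deposited scale, -0.038 after quantile normalization and 0.12 after median centring. Relative to that median, NTRC stood at 1.75, 1.98 and 1.74 in that order of scales, FTRB at 1.303, 0.93 and 1.29, and AT4G08280 at 2.82, 2.94 and 2.81. Measured this way the order of the members was the same on each of these 3 scales. Among the 452 features with 1 gene that were tested, AT4G08280 ranked 7th from the highest difference after quantile normalization, NTRC 34th and FTRB 105th. As deposited, they ranked 11th, 40th and 69th.

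**Figure D3:**
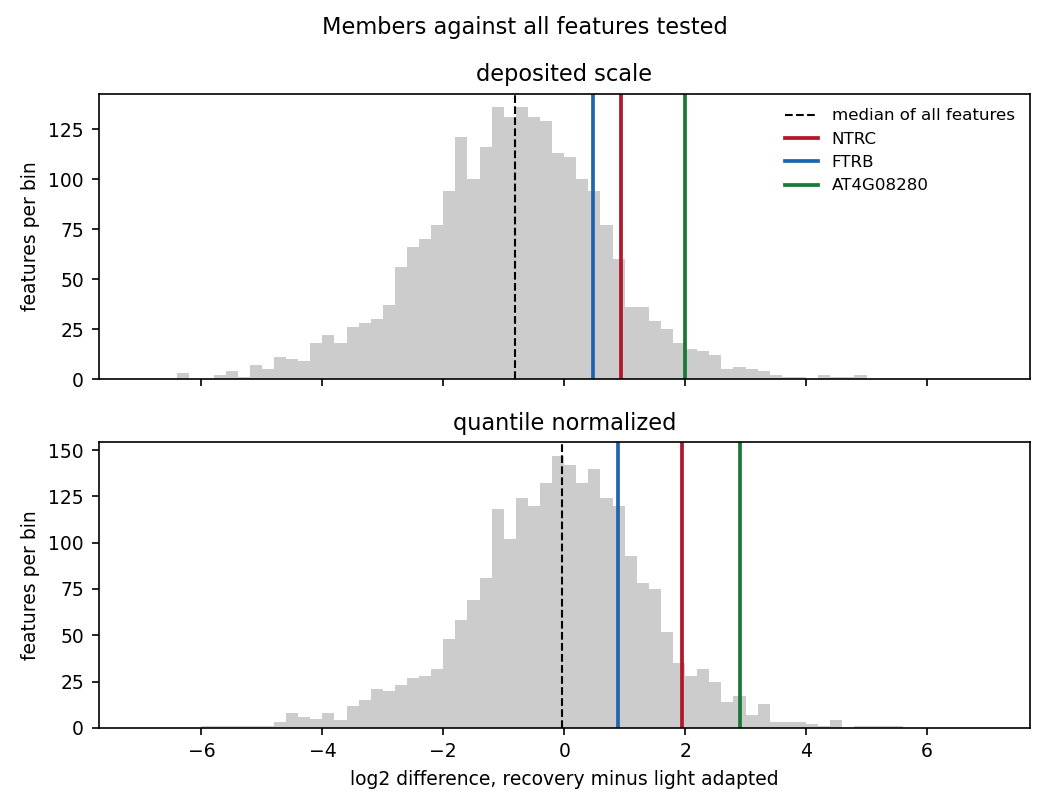
Distribution of log2 differences, recovery minus light adapted, over the 2364 features tested (horizontal axis, with the number of features per bin of the histogram on the vertical axis), on the deposited scale (top) and after quantile normalization (bottom). The dashed line is the median of all features, at -0.82 and -0.038, and coloured lines mark NTRC, FTRB and AT4G08280, all to the right of it.

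**Figure D4:**
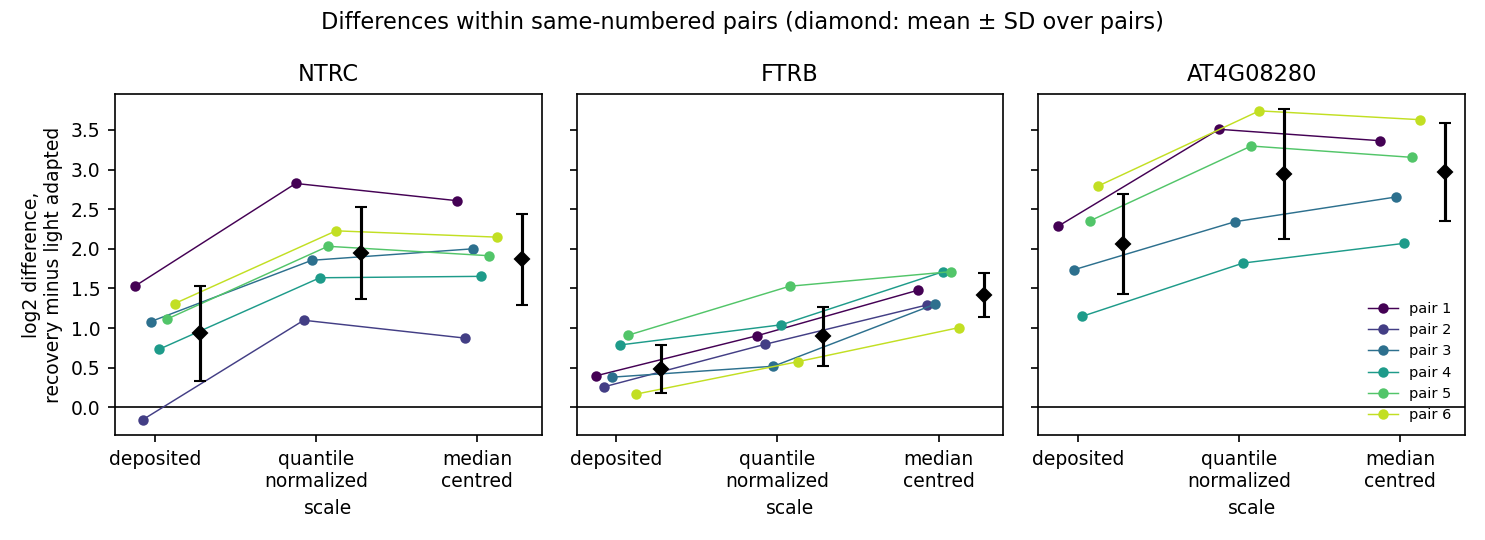
Log2 difference within each same-numbered pair of arrays (vertical axis) on the deposited, quantile-normalized and median-centred scale, for NTRC and FTRB in 6 pairs and AT4G08280 in 5, with the mean ± SD as black diamonds. The value of -0.16 for NTRC in pair 2 on the deposited scale is the one below 0.

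On the quantile-normalized scale, the members did not follow each other closely from array to array. After the group means were removed, the quantile-normalized values of NTRC and FTRB had a Pearson correlation of -0.25 over 12 arrays, those of NTRC and AT4G08280 of 0.27 over 11, and those of FTRB and AT4G08280 of 0.25 over 11. These are descriptions of few arrays that share their scaling. Correlations were not computed on the deposited scale, where arrays 3 and 4 held the highest values of both FTRB and AT4G08280 in each group. The pooled spread within groups was 0.42 for NTRC, 0.45 for FTRB and 0.61 for AT4G08280 (SD of log2 after quantile normalization), against a median of 0.77 over all features tested.

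The genes most like each member were found among features with 1 gene by the Pearson correlation of quantile-normalized log2 values over the arrays on which the member was measured. For NTRC they were AT1G17160 at 0.95, AT4G13550 at 0.94 and AT1G02260 at 0.93, over 12 arrays and 257 candidates. For FTRB they were AGL26 (AT5G26880) at 0.88, TPP2 at 0.87, the tripeptidyl peptidase II gene, and AT5G52970 at 0.80. For AT4G08280 they were AT3G16310 at 0.94, AT1G13990 at 0.94 and THIC at 0.93, the thiamine synthesis gene, over 11 arrays and 258 candidates. All 9 were, like the members, higher in recovery on both the deposited and the quantile-normalized scale, so these correlations contain the difference between the groups.

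With the group means removed, the lists changed in part. NTRC was then most like AT3G54210, a plastid ribosomal protein L17 gene, at 0.84, AT2G23070 at 0.83 and AT1G06510 at 0.70. FTRB was most like PAC at 0.79, a gene of chloroplast development, followed by AT5G52970 at 0.75 and AGL26 at 0.72, which were also on its first list. These were the highest among 257 candidates, with a median of -0.031 for NTRC and -0.11 for FTRB. The largest deviation of NTRC was on light-adapted array 1, at -5.74 against a group mean of -4.79. That of FTRB was on light-adapted array 5, at -2.87 against -1.88. Single arrays can therefore weigh heavily here, and correlations without them were not computed. AT4G08280 was most like PSB27 at 0.89, an assembly factor of photosystem II, then AT2G44760 at 0.82 and AT3G16310 at 0.82. The deviations of AT4G08280 were far larger in light-adapted arrays (SD 0.90, n = 5) than in recovery arrays (SD 0.15). Its 3 correlations therefore rest mainly on 5 light-adapted arrays with dim values, 0.0222 to 0.125 as deposited. They were the highest among 258 candidates with a median of 0.0063. PAC and PSB27 had lower means in recovery, with quantile-normalized log2 differences of -1.18 and -1.35, opposite in sign to the member they resembled within groups.

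Of the other 90 genes on 6 lists of the thioredoxin pathway, 5 had a feature of their own: 1 of the peroxiredoxins and antioxidant enzymes and 4 of the chloroplast proteins that thioredoxins regulate. No other thioredoxin reductase, thioredoxin, glutaredoxin or ferredoxin on the lists had one, and features shared by several genes were not counted. Of the 5, 3 could be tested, and 0 were called higher, 1 lower and 2 neither, against 18.5% higher and 18.4% lower over all features. The median quantile-normalized log2 difference of these 3 genes was 0.13, the value of NADP-MDH, against -0.038 over all features tested. That value leaves out 2 recovery arrays at 0; it was -0.91 with the zeros kept by a pseudocount and -0.75 with the array number as a block, and so was the median of the 3.

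PRK fell. It encodes phosphoribulokinase, a Calvin-Benson enzyme that thioredoxin activates in the light. Its deposited intensity was 3.69, 3.75, 4.75, 5.93, 4.94 and 4.54 on light-adapted arrays 1 to 6. On recovery arrays 1 to 6 it was 1.83, 1.85, 2.17, 2.12, 1.02 and 1.06, below the light-adapted array in every pair and with no overlap between the groups, as for 21.1% of features in this direction. The quantile-normalized log2 difference was -1.63 ± 0.17 (SE, limma adjusted p = 1.86e-05) and the deposited one -1.50 (limma adjusted p = 0.000590). After median centring it was -0.57 and no longer passed (limma adjusted p = 0.0637). The marker LHB1B2 also fell after quantile normalization, at -1.28 (limma adjusted p = 5.62e-05). As deposited it was at -0.77, beside a median of -0.82 over all features tested. It was lower on the recovery array in every same-numbered pair, though the groups overlapped. The deposited difference did not pass in the unpaired fit (limma adjusted p = 0.0551) but did with the array number as a block (limma adjusted p = 0.0161). After median centring LHB1B2 was at 0.16. The marker PSAN was at -0.29 (limma adjusted p = 0.291), 0.017 and, after median centring, 0.95 (limma adjusted p = 0.00123). Their part in the values of PRK and of the members was not tested. PRK had the opposite sign to NTRC, FTRB and AT4G08280 on each of these scales; that difference between genes was not tested.

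CHLM, the magnesium protoporphyrin methyltransferase of chlorophyll synthesis, did not pass, at a quantile-normalized log2 difference of 0.34 ± 0.24 (SE, limma adjusted p = 0.286). Its deposited intensity ran from 0.165 to 0.320 with a median of 0.179 on light-adapted arrays, and from 0.0741 to 0.248 with a median of 0.150 on recovery arrays. The sign of its difference depended on the scale, at -0.46 as deposited. The feature of the NADP-dependent malate dehydrogenase gene NADP-MDH (AT5G58330) gave 0.13 ± 0.92 (SE, limma adjusted p = 0.931). It ran from 0.0194 to 0.410 on light-adapted arrays and was at 0 on 2 of the 6 recovery arrays, where the highest value was 0.122. Its sign also turned, to -0.76 as deposited.

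PRXIIE, a chloroplast peroxiredoxin, was above 0 on 5 light-adapted and 3 recovery arrays and was not tested, with a highest intensity of 0.0619. SBPASE was above 0 on 1 array of 12, recovery array 3, at 0.0719. SRX (AT1G31170), the sulfiredoxin that repairs overoxidized 2-Cys peroxiredoxins, was on no list and was added after the data were examined. Its deposited intensity was 0.171, 0.247, 0.166, 0.0413, 0.0779 and 0.111 on light-adapted arrays 1 to 6. On recovery arrays 1 to 6 it was 0.235, 0.163, 0.184, 0.219, 0.132 and 0.150, higher in every pair but the one numbered 2, and the groups overlapped. It was higher after quantile normalization, by 1.40 ± 0.40 (SE, limma adjusted p = 0.0151), where 18.5% of all features tested were called higher. Leaving out single arrays gave 1.07, without light-adapted array 4, to 1.67. On the deposited scale SRX was at 0.60 (limma adjusted p = 0.227). Since the gene was added after the data were examined, its p-values are descriptions. With 3 means against 3 it did not pass (limma adjusted p = 0.0864).

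**Figure D5:**
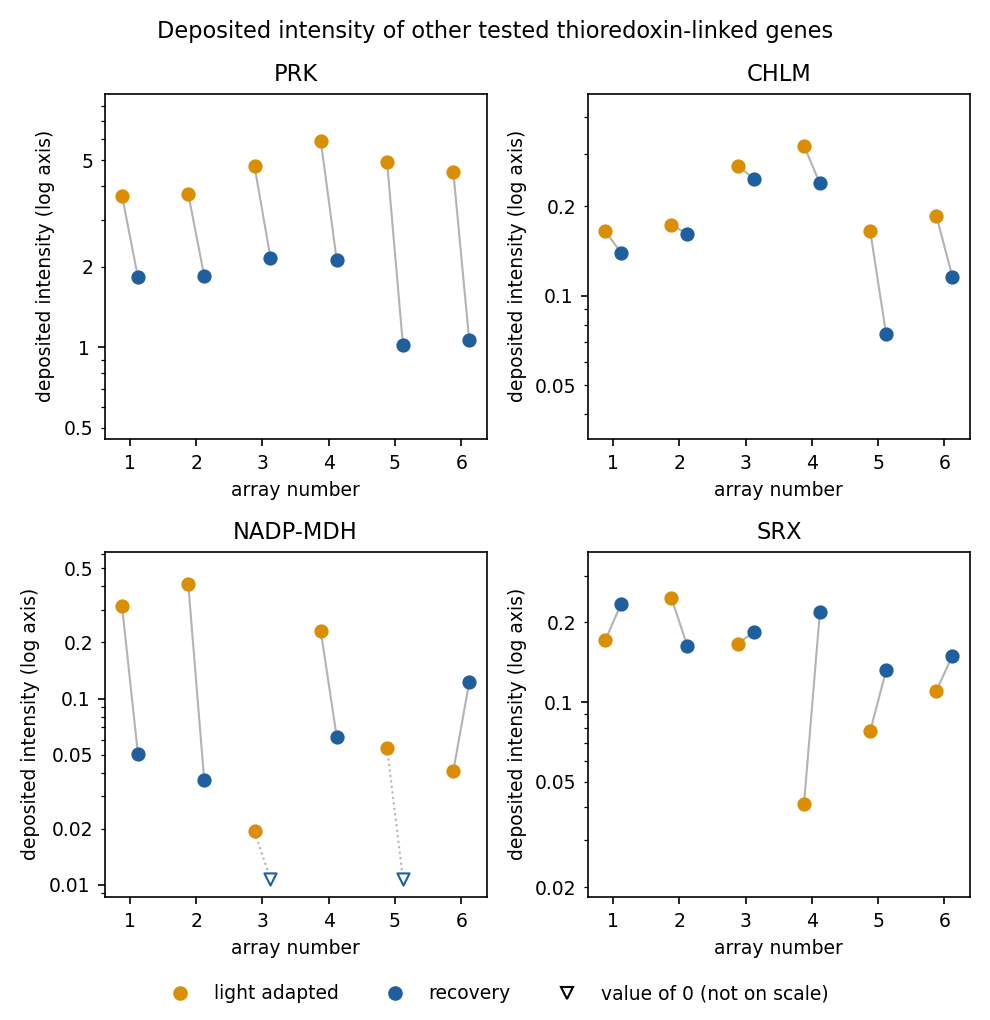
Deposited intensity (log axis) of PRK, CHLM, NADP-MDH and SRX on arrays 1 to 6, with light-adapted arrays in orange, recovery arrays in blue, lines joining arrays of the same number and open triangles for values of 0. PRK is lower on every recovery array, at 1.02 to 2.17 against 3.69 to 5.93, and the groups overlap for CHLM, NADP-MDH and SRX.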

How the data were processed

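The data are the deposited intensity values of 12 arrays, with 1 channel each. How the authors made these intensity values (scanner, background correction, normalization, the ceiling) is not given in the sources used here. Their scale and any centring therefore stay unknown; they have 1 channel, so no direction had to be assumed. Arrays were grouped by their titles. Features were named through the platform annotation and, for 690 of the 692 with 1 gene, a TAIR10.1 table; 1877 are not named in it.

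Zeros were set to missing, log2 values were quantile normalized over all features, and 2364 features, those above 0 on at least 4 arrays of each group, entered limma (version 3.58.1, in R 4.3.3), while 1075 were put aside. The fit used lmFit and eBayes, two-sided, with Benjamini-Hochberg adjustment over all features. The deposited and median-centred scales, a pseudocount of 0.01, filters, single arrays left out, means of arrays 1 and 2, 3 and 4, and 5 and 6, and the array number as a block were alternatives. Arrays were paired and blocked by their number, a pairing that the labels do not state. Same-numbered arrays deviated together from their group means, though weakly (r = 0.108 to 0.194 over 1429 features). Arrays of different numbers were not compared in this way, and neighbouring numbers also had like totals. The values therefore do not establish pairs by number, and the pair differences and block fits depend on that choice. The number of arrays limits the precision. Genes named are the members, the list and marker genes with a feature of their own, and SRX. PRXIIE and SBPASE were named though not tested, and SRX was added after the data were examined. For each member, the 3 most like genes by each of the correlations described were named as well. The members, lists and rules were chosen with earlier results of these data known. Plots used matplotlib 3.10.9 (Python 3.11.15).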

Additional observations from a re-analysis of the deposited data

Results flagged for a closer look

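Light-adapted array 1 stood apart from the other 5 light-adapted arrays for NTRC after quantile normalization, at a log2 value of -5.74 against -4.81 to -4.36. Its gap to the next array was 0.677 of the range of the group, more than Dixon's critical value for 6 arrays. It was the one group so marked among 12 groups of values examined, and chance marks about 1 group in 20. Without that array the NTRC difference was 1.78.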

How the results depend on the processing

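The differences of NTRC, FTRB and AT4G08280 were above 0 under all alternatives run, and their sizes depended on the scale. NTRC was at 0.93 on the deposited scale, with and without the replicate block, and AT4G08280 at 2.00, or 2.06 with the block, which drops pair 2. FTRB was at 1.42 after median centring, with and without the block. With the replicate block on the quantile-normalized scale, the values were 1.95, 0.89 and 2.94 for NTRC, FTRB and AT4G08280, and 832 features were called against 873, with the pathway genes called unchanged at 1. The fits that combine a scale with the block were chosen after seeing the data. Leaving out single arrays gave 1.78 to 2.06 for NTRC, 0.70 to 1.05 for FTRB, 2.70 to 3.23 for AT4G08280, and 781 to 858 calls. With the means of neighbouring arrays, 3 against 3, 405 features were called, and SRX (limma adjusted p = 0.0864) was not; fewer samples enter there. After median centring 0 pathway genes were called in limma, with and without the block, since PRK was at -0.57 (limma adjusted p = 0.0637, or 0.147 with the block); the cause was not tested. Median centring also turned the signs of LHB1B2, to 0.16, and PSAN, to 0.95, with and without the block. On the deposited scale calls were split into 226 higher and 870 lower, and after median centring into 619 and 345. Requiring values above 0 on all arrays left AT4G08280 out. Dim values near 0 limit the sizes for NTRC and AT4G08280.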
